A study of Mus musculus with 24 samples.

Results

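Acta2, Tagln, Cnn1, Myh11, Actg2, Myl9, Mylk, Lmod1, Smtn and Des encode parts of the contractile apparatus of smooth muscle. They were taken by symbol and are 10 of the 35727 gene identifiers counted. All 10 passed the filter on low counts, which left 14804 genes for testing.

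The genes were followed in 24 RNA sequencing libraries of mouse heart cells kept in EGM2, an endothelial growth medium. Cells labelled SEG, Sox17 or Erg, whose cell type label is iEC and which the series calls aiECs, were compared with control cells labelled fibroblast, each with 3 libraries on day 7 and 3 on day 3. Sox17 and Erg are transcription factors of endothelial cells, and the study asked how far each condition takes on endothelial identity. The labels give neither what SEG stands for, nor how the factors were delivered, what the control cells received, the strain, age or sex of the mice, or whether libraries came from separate cultures or animals. A p-value here therefore measures the spread between libraries, which may be technical.

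Smooth muscle cells shorten when myosin, switched on by phosphorylation of its regulatory light chain, pulls on actin filaments. Most genes of this machinery are driven by serum response factor (SRF), which binds CArG boxes near their start sites and works with myocardin (Myocd) or the related factors Mrtfa and Mrtfb, while Klf4 is known as a repressor of the program. In heart, several of these genes mark vascular smooth muscle, and fibroblasts that become myofibroblasts switch on some of them, Acta2 and Tagln foremost. Endothelial cells normally keep them low.

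Upstream sequence is shown for Acta2, Myl9 and Cnn1 because each carries a match to a motif of SRF or of SOX factors. RefSeq promoters of build GRCm38.p6 (mm10) matched 7 of the 10 genes, all but Tagln, Myh11 and Actg2. The 250 bases before each start were searched on both strands for the CArG box, here CC and GG around 6 bases that are A or T. A match with no G or C in its middle was found in Myl9 alone among the 7, against 1.47% of 32851 promoters. A looser form with at most 1 G or C there, which includes the strict one, was found in Acta2 and Myl9, against 8.59% of promoters. AACAAT, a core motif of SOX factors, was found in Cnn1, against 9.42% of promoters. GGAAGT, a motif of the ETS family to which Erg belongs, was found in none of the 7, against 19.7% of promoters. A match describes the letters and shows no binding. Capitals mark the matches in these stretches. The first 2 lie on the minus strand at chr19:34255438-34255467 and chr19:34255388-34255417, within an annotated exon of Acta2. The others lie on the plus strand at chr2:156775214-156775419 and chr9:22099003-22099215, cut off before the first annotated exon.
Acta2, bases -84 to -75 in capitals: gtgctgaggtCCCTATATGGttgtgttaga
Acta2, bases -34 to -25 in capitals: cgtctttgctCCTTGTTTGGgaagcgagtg
Myl9, both CArG matches in capitals: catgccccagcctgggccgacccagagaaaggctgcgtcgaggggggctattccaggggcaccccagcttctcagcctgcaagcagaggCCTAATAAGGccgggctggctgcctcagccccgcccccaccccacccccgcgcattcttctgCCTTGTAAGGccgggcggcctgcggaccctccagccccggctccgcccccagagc
Cnn1, AACAAT in capitals: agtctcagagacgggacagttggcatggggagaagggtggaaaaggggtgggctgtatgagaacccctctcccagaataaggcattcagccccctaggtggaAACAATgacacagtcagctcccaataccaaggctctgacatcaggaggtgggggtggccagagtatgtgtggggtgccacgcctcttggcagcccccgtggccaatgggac

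Total counts per library ran from 18794422 to 44586227. Sox17 was at 461 to 1054 CPM (read counts scaled to a common library size) in SEG libraries. It was at 616 to 1653 CPM in Sox17 libraries and at 0 counts in the 6 control libraries. Erg was at 836 to 1281 CPM in SEG libraries and at 4327 to 7133 CPM in Erg libraries. In the others it was at 3 counts or fewer. The fibroblast marker Pdgfra was at 24.2 to 185.7 CPM in SEG and Sox17 libraries and at 631 to 850.3 CPM in control libraries. In Erg libraries it was at 184.6 to 238.9 CPM. The fibroblast marker Dcn stayed higher in Erg libraries, at 605 to 1110 CPM. It was at 45.0 to 171.5 CPM in SEG and Sox17 libraries and at 630 to 1387 CPM in control libraries. The fibroblast marker Col1a1 overlapped, at 3270 to 10879 CPM in SEG and Sox17 libraries and 7497 to 13231 CPM in control libraries. Among markers of other muscle, Myog and Myf5 were at 0 in all 8 groups, and Myl3 was at 0 in 7 of the 8. Others were present. The 12 cardiomyocyte markers summed to 53.0 to 57.0 CPM in control libraries on day 3 and 76.05 to 94.8 CPM on day 7. In Sox17 libraries on day 7 they summed to 23.95 to 73.9 CPM. Replicate 1 of Sox17 on day 7 stood apart, with 7.47% of its counts in ribosomal protein genes. Replicate 1 of SEG on day 7 had 5.17%, and the other 22 libraries had 3.01% to 4.73%. The same Sox17 library had 0.880% of its counts in mitochondrial genes, and the other 23 had 1.39% to 2.01%. In that Sox17 library, Myl9 was 2.62 times, Actg2 2.27 times, Cnn1 2.01 times and Acta2 1.66 times the mean of the other 2 libraries of its group, and Mylk was 0.536 times that mean. On day 7, Sox17 was at 461, 819 and 816 CPM in SEG replicates 1, 2 and 3. In Sox17 replicates 1, 2 and 3 it was at 616, 1303 and 1322 CPM. Several values of the contractile genes and of regulators are therefore also given without these replicate 1 libraries.

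The 10 genes differed in level by orders of magnitude, and actin and transgelin made up most of their transcripts. Per kilobase of exon, Acta2, the actin of vascular smooth muscle (mm10 chr19:34241090-34255590, minus strand), averaged 508 CPM in SEG, 1001 CPM in Sox17, 106 CPM in Erg and 29.5 CPM in control libraries on day 7. Its share of the summed CPM per kilobase of the 10 genes was 62.2% ± 0.846 in SEG, 37.5% ± 2.61 in Erg and 45.5% ± 3.001 in control libraries on day 7 (SD, n = 3 each). Tagln, an actin-binding protein also called SM22 (chr9:45929619-45936058, minus strand), took the largest share on the same scale in Erg, 47.5% ± 2.62 on day 7 and 69.02% ± 0.667 on day 3. Myh11, the heavy chain of smooth muscle myosin (chr16:14194535-14291372, minus strand), the protein most restricted to mature smooth muscle, reached 1.25 CPM per kilobase at most, in SEG on day 7, which was 0.157% ± 0.0452 of the sum. In control cells on day 7, Smtn, which codes for the actin-associated protein smoothelin (chr11:3517523-3540612, minus strand), made up 24.3% ± 2.03 of the sum, against 7.80% ± 0.574 on day 3.

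**Figure D1:**
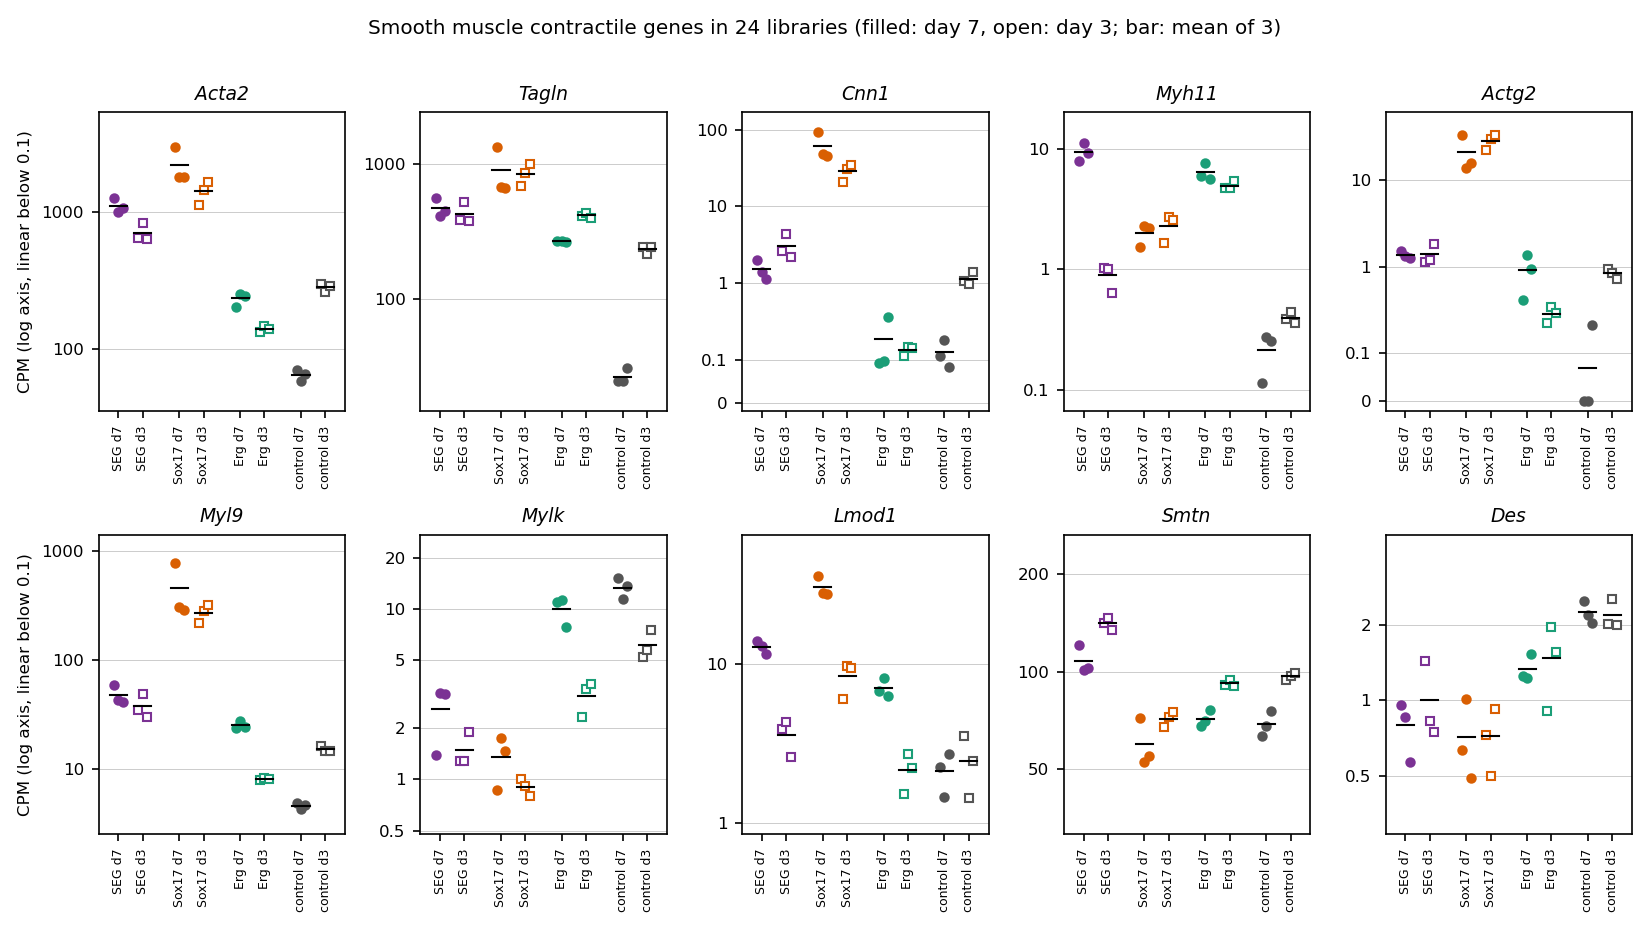
CPM of each of the 10 genes in every library (log axis, linear below 0.1), by condition, with day 7 filled and day 3 open and bars at the mean of 3 libraries. Acta2, Tagln, Cnn1, Actg2 and Myl9 were highest in Sox17 libraries and lowest, or among the lowest, in control libraries on day 7. Mylk was highest in control libraries on day 7, and Des was highest in control libraries of both days, which overlapped.

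In control fibroblasts, most of the contractile genes were lower on day 7 than on day 3. Of the 10 genes, 6 fell (Acta2, Tagln, Cnn1, Actg2, Myl9 and Smtn), against 13.4% of all genes tested, and 1 rose (Mylk), against 16.1%. Calls here and below are those of edgeR's quasi-likelihood test at a Benjamini-Hochberg adjusted p under 0.05, 2-sided, over all 14804 genes, and log2 changes carry the standard error of that fit. The median log2 change of the 10 was -1.28, against 0.03 for all genes. In bulk RNA, fewer cells of a type and less RNA per cell cannot be told apart.

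Acta2 was at 70.5, 58.3 and 65.5 CPM on day 7, against 300.1, 260.4 and 287 CPM on day 3. Every day 7 library was below every day 3 library, and Acta2 fell by 2.12 ± 0.185 on the log2 scale (edgeR adjusted p = 2.81e-08). Tagln was at 24.3, 24.2 and 30.2 CPM on day 7, against 243, 214 and 240.3 CPM on day 3, again with no overlap. It fell by 3.15 ± 0.230 (edgeR adjusted p = 2.51e-09), further than Acta2 by point estimate; the difference between the genes was not tested. Cnn1, calponin, which binds actin and slows myosin in smooth muscle (chr9:22099216-22109630, plus strand), had 2, 4 and 2 counts on day 7, against 1.14 ± 0.209 CPM on day 3, and fell by 3.13 ± 0.631 (edgeR adjusted p = 0.000708). Actg2, the gamma actin of visceral smooth muscle (chr6:83512905-83536265, minus strand), had 0, 0 and 5 counts on day 7, against 0.948, 0.842 and 0.716 CPM on day 3, and fell by 3.33 ± 0.786 (edgeR adjusted p = 0.00281). Counts this low set only a loose size for the change: without replicate 3 of control on day 7, which held all 5 counts of Actg2, the fitted fall had no meaningful size because the group was at 0.

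Myl9, the regulatory light chain of smooth muscle myosin (chr2:156775420-156781658, plus strand), was at 4.93, 4.27 and 4.74 CPM on day 7, against 16.5, 14.7 and 14.8 CPM on day 3, with no overlap, and fell by 1.72 ± 0.307 (edgeR adjusted p = 0.000209). Mylk, the calmodulin-dependent kinase that phosphorylates that light chain (chr16:34745210-35002420, plus strand), went the other way. It was at 15.1, 11.4 and 13.5 CPM on day 7, against 5.24, 5.75 and 7.52 CPM on day 3, and rose by 1.11 ± 0.264 (edgeR adjusted p = 0.00306). Smtn fell by 0.49 ± 0.102. Myh11, at 0.113, 0.273 and 0.254 CPM on day 7 and 0.391, 0.446 and 0.358 CPM on day 3, did not pass, with a log2 change of -0.84 ± 0.410 (edgeR adjusted p = 0.181), although its libraries did not overlap; it rested on 2 to 9 counts per control library. Lmod1, leiomodin, a nucleator of actin filaments in muscle (chr1:135324807-135368065, plus strand), had a log2 change of -0.19 (95% interval -0.84 to 0.46), and Des, desmin, the intermediate filament of muscle (chr1:75360329-75368579, plus strand), one of 0.03 (95% interval -0.59 to 0.66). No call among the 10 genes in control changed when any single library was left out or under any alternative tried.

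Other genes of the lists set beside them split in control cells. Of all genes tested, 16.1% rose and 13.4% fell, the shares to set beside each list here. Of the other contractile and cytoskeletal genes, 5 rose and 6 fell of 22 tested. Tpm2, a tropomyosin, fell by 1.09. Kcnmb1, a subunit of the calcium-activated potassium channel of smooth muscle, fell by 2.18 (edgeR adjusted p = 0.0362), with 2, 2 and 1 counts on day 7 and 0, 11 and 11 counts on day 3, which overlapped. That call was lost without any single control library other than replicate 1 of day 3 (adjusted p = 0.0598 to 0.159). Pgm5, a protein of adherens junctions in muscle, rose by 2.23 and Synpo2, an actin-bundling protein, by 1.62. Among regulators, 2 rose and 5 fell of 17 tested. Myocd fell by 2.35 ± 0.506 (edgeR adjusted p = 0.00128), with libraries at 0.624, 0.500 and 0.254 CPM on day 7 and 2.68, 2.03 and 2.25 CPM on day 3, which did not overlap. Klf4 fell by 0.64, Fhl2 by 0.59 and Rhoa by 0.56, and Srf, Mrtfa and Mrtfb had log2 changes of 0.15, -0.28 and -0.37 that did not pass. The nonmuscle actins Actb and Actg1 fell by 0.70 and 0.48, less than Acta2 by point estimate. Myofibroblast markers also moved, and 6 of 7 tested fell, with log2 changes of -3.00 for Tnc, -2.39 for Col12a1, -2.15 for Cthrc1 and -0.95 for Fn1. Their summed level was 9633 to 10118 CPM on day 7, against 18581 to 18931 CPM on day 3, with none of the 8 at 0. Of fibroblast markers, 5 rose and 3 fell of 10 tested, with Dpt up by 2.92 and Gsn by 2.64. The part of these cell states in the fall was not tested.

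On day 7, SEG cells held far more of most contractile transcripts than control cells. Of the 10 genes, 8 rose, against 22.5% of all genes, and 2, Mylk and Des, fell, against 21.8%. Their median log2 change was 3.45, against 0.0086 for all genes. The 3 comparisons with control on a day share its 3 libraries, so their values are given side by side.

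Acta2 was at 1270.3, 1006 and 1071 CPM in SEG, 2988, 1804 and 1806 CPM in Sox17 and 202, 253 and 245 CPM in Erg libraries on day 7, against 70.5, 58.3 and 65.5 CPM in control libraries. No library of the 3 conditions overlapped control, and Sox17 libraries lay above SEG libraries, which lay above Erg libraries. The log2 changes were 4.11 ± 0.201 in SEG, 5.09 ± 0.210 in Sox17 and 1.85 ± 0.183 in Erg (edgeR adjusted p = 1.03e-12, 7.59e-14 and 6.82e-08). Tagln was at 560.0, 409 and 448 CPM in SEG, 1349.8, 681 and 666 CPM in Sox17 and 268, 269 and 263 CPM in Erg libraries, against 24.3, 24.2 and 30.2 CPM in control libraries. All 9 were above control, with log2 changes of 4.17 ± 0.240 in SEG, 5.10 ± 0.251 in Sox17 and 3.35 ± 0.232 in Erg. Both genes also fell in control between the days, so the change over time within each condition is given as well.

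Myh11 did not follow the order of Acta2. It was at 8.03, 11.2 and 9.33 CPM in SEG, 1.54, 2.29 and 2.23 CPM in Sox17 and 5.96, 7.73 and 5.70 CPM in Erg libraries on day 7, against 0.113, 0.273 and 0.254 CPM in control libraries. SEG libraries were the highest and Sox17 libraries the lowest of the 3 conditions. Its log2 changes were 5.41 ± 0.297 in SEG, 3.16 ± 0.315 in Sox17 and 4.84 ± 0.299 in Erg (edgeR adjusted p = 6.42e-12, 5.01e-08 and 7.36e-11). Myl9 was at 58.9, 43.6 and 41.8 CPM in SEG, 785, 309 and 291 CPM in Sox17 and 23.98, 27.4 and 24.5 CPM in Erg libraries, against 4.93, 4.27 and 4.74 CPM in control libraries. As for Acta2, Sox17 libraries were the highest, followed by SEG, Erg and control libraries. Its log2 changes were 3.37 ± 0.312, 6.63 ± 0.351 and 2.44 ± 0.306 for SEG, Sox17 and Erg, and 6.01 for Sox17 without replicate 1. Mylk, whose product acts on Myl9, was at 1.39, 3.20 and 3.18 CPM in SEG, 0.863, 1.75 and 1.47 CPM in Sox17 and 10.9, 11.3 and 7.83 CPM in Erg libraries, against 15.1, 11.4 and 13.5 CPM in control libraries. It fell by 2.35 ± 0.280 in SEG and 3.30 ± 0.292 in Sox17, and its log2 change in Erg of -0.41 ± 0.257 did not pass (edgeR adjusted p = 0.193, and 0.0435 without both outlying libraries).

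Cnn1 and Actg2 were highest in Sox17 on day 7. Cnn1 was at 2.01, 1.39 and 1.14 CPM in SEG, 93.4, 48.1 and 44.8 CPM in Sox17 and 0.0924, 0.0978 and 0.366 CPM in Erg libraries on day 7, against 0.113, 0.182 and 0.0846 CPM in control libraries. SEG and Sox17 libraries lay above control and Erg libraries overlapped it. Its log2 changes were 3.52 ± 0.594 in SEG, 8.89 ± 0.476 in Sox17 and 0.71 ± 0.833 in Erg (edgeR adjusted p = 5.55e-05, 4.34e-12 and 0.505). In Erg the 3 libraries held 2, 2 and 12 counts, and without replicate 3 the log2 change was -0.39. Actg2 was at 1.53, 1.31 and 1.26 CPM in SEG, 33.4, 13.7 and 15.7 CPM in Sox17 and 0.416, 1.37 and 0.945 CPM in Erg libraries, against 0, 0 and 5 counts in control libraries. Sox17 libraries were the highest, and it was called in all 3 conditions, with log2 changes of 4.04 ± 0.711, 7.98 ± 0.568 and 3.45 ± 0.754 for SEG, Sox17 and Erg, whose size rests on the 5 counts of a single control library. Without that library, replicate 3, control was at 0 counts; the calls remained and the fitted changes moved to 8.13 in SEG, 12.1 in Sox17 and 7.55 in Erg, which depend on the preset prior count and are no measure of size.

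Lmod1 was at 13.9, 12.96 and 11.5 CPM in SEG, 35.9, 27.9 and 27.4 CPM in Sox17 and 6.75, 8.12 and 6.34 CPM in Erg libraries on day 7, against 2.27, 1.45 and 2.71 CPM in control libraries, and rose in each, by 2.57 ± 0.287, 3.82 ± 0.292 and 1.71 ± 0.288. Smtn was at 121, 101 and 102 CPM in SEG libraries, against 63.2, 67.8 and 75.4 CPM in control libraries, and rose by 0.65 ± 0.102. It did not pass in Sox17 (-0.21 ± 0.102, edgeR adjusted p = 0.0944), where it fell by 0.36 without replicate 1 (edgeR adjusted p = 0.000885), or in Erg (0.05 ± 0.102, edgeR adjusted p = 0.692). Des was at 0.956, 0.861 and 0.570 CPM in SEG, 0.636, 1.01 and 0.491 CPM in Sox17 and 1.25, 1.22 and 1.52 CPM in Erg libraries, against 2.49, 2.18 and 2.03 CPM in control libraries. It was low everywhere and highest in control, fell by 1.49 ± 0.321 in SEG and 1.63 ± 0.312 in Sox17, and in Erg had a log2 change of -0.73 ± 0.304 (edgeR adjusted p = 0.0533). That last value passed with DESeq2, with a fit of only those 2 groups, without both outlying libraries, without replicate 1 of Sox17 on day 7 and without replicate 1 of SEG on day 3.

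By count, 7 of the 10 rose and 2 fell in Sox17 on day 7, against 29.5% and 25.0% of all genes, and 6 rose and none fell in Erg, against 23.7% and 24.8%, where edgeR gave 1 fall with an unadjusted p under 0.05, Des, which DESeq2 called. The median log2 change of the 10 was 4.45 in Sox17 and 1.78 in Erg, against 0.047 and -0.015 for all genes. Without replicate 1, Acta2 in Sox17 rose by 4.80, Tagln by 4.68, Cnn1 by 8.46 and Actg2 by 7.45, and without both outlying libraries Acta2 in SEG rose by 4.04 and Myh11 by 5.54. No call in SEG on day 7 changed when any single library was left out or under any alternative tried.

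**Figure D2:**
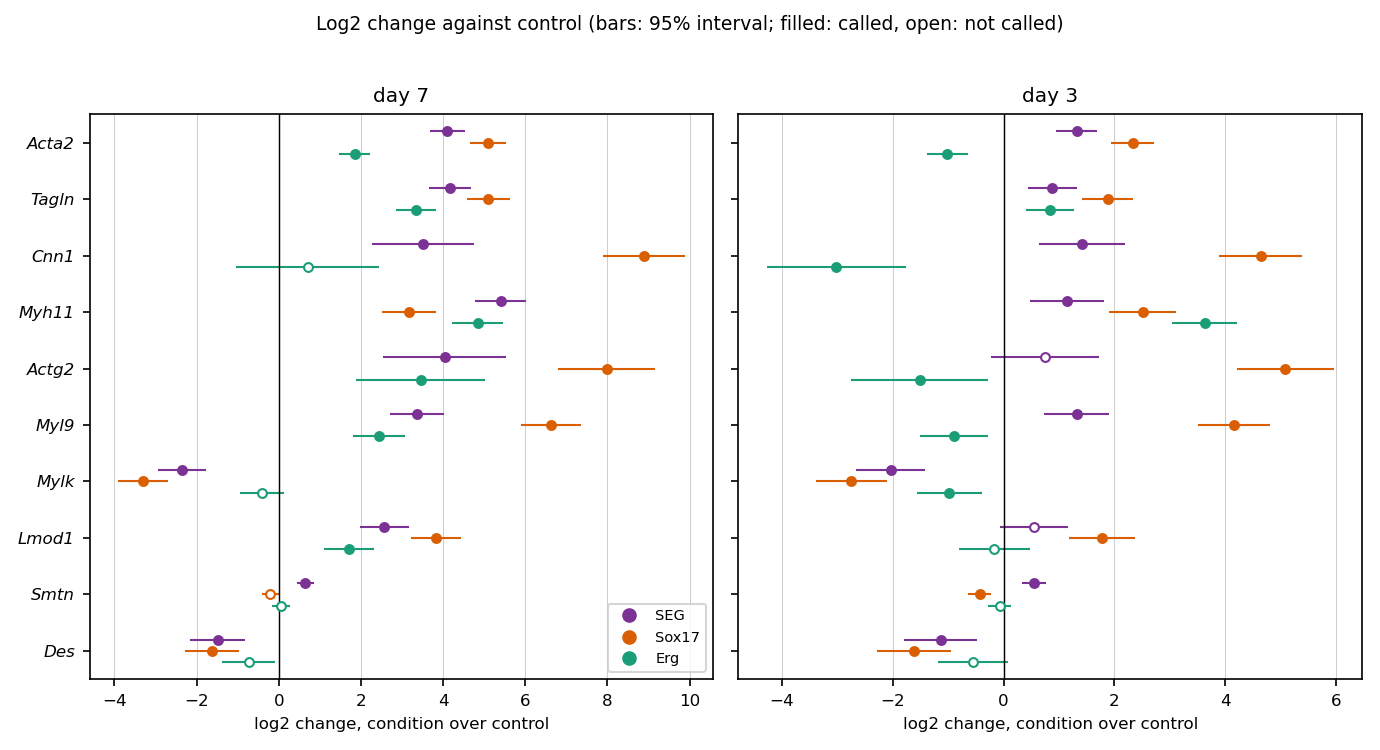
Log2 change of each gene in SEG, Sox17 and Erg over control on day 7 (left) and day 3 (right). Bars are approximate 95% intervals from edgeR's test, filled points are called changes, and the panels have different scales. On day 7 Acta2, Tagln, Myh11, Actg2, Myl9 and Lmod1 lay above 0 in all 3 conditions, while on day 3 Acta2, Cnn1, Actg2 and Myl9 lay below 0 in Erg.

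Around the 10 genes on day 7, the other contractile genes were mixed in SEG against control. Of 22 tested, 11 rose and 5 fell, against 22.5% and 21.8% of all genes. Kcnmb1 was up by 5.90 and Ldb3, a Z-disc protein, by 1.88, and log2 changes were -5.58 for Pgm5 and -2.09 for Synpo2. The same shares of all genes stand beside the regulators. Of the regulators, 5 rose and 5 fell of 17 tested. Myocd was at 2.44, 3.82 and 4.03 CPM in SEG, 0.272, 1.28 and 1.40 CPM in Sox17 and 0.462, 0.538 and 0.244 CPM in Erg libraries, against 0.624, 0.500 and 0.254 CPM in control libraries. It rose in SEG by 2.92 ± 0.497 and did not pass in Sox17 (1.09 ± 0.518, edgeR adjusted p = 0.0835) or Erg (-0.17 ± 0.585, edgeR adjusted p = 0.834). In Sox17 it rose by 1.57 without replicate 1 (edgeR adjusted p = 0.0026), and the other 2 Sox17 libraries were above every control library. Srf stayed within -0.17 and 0.40 in log2 change across the 3 conditions, with a call in Sox17 alone. Mrtfb rose by 1.19 in SEG and 0.90 in Sox17, Mrtfa fell by 0.44 in Sox17, and Klf4 fell by 0.83, 0.70 and 1.07 in SEG, Sox17 and Erg. In Sox17, replicate 1 stood apart from the other libraries for Klf4 (28.6, 64.6 and 67.8 CPM) and Mrtfb (30.9, 60.5 and 63.8 CPM). Without it, Klf4 fell by 0.39, Mrtfb rose by 1.17 and Mrtfa fell by 0.28, all still called. Without both outlying libraries, Mrtfa in SEG passed with a rise of 0.21 (edgeR adjusted p = 0.0118). The regulator Csrp2, a partner of SRF in smooth muscle, rose by 2.27 in SEG and Fhl2 fell by 1.16.

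**Figure D3:**
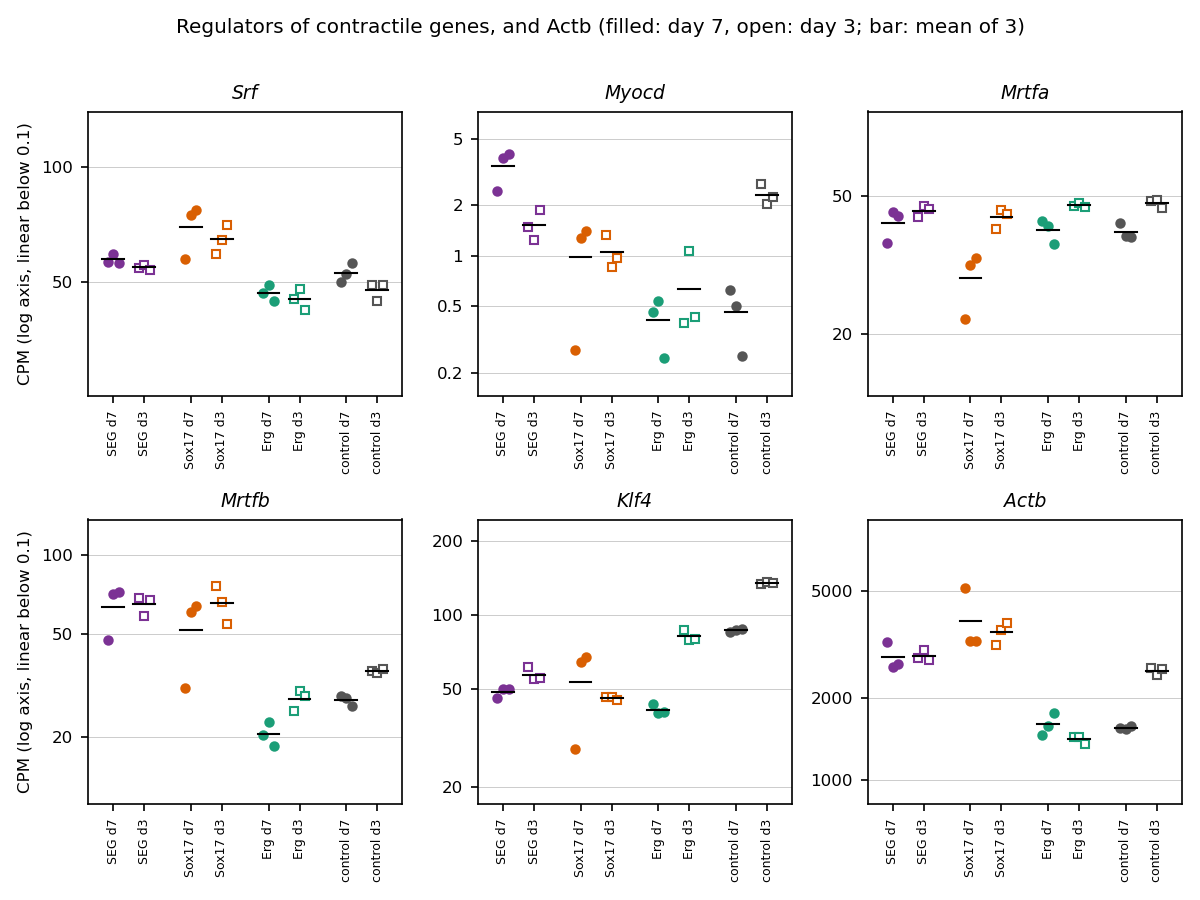
CPM of Srf, Myocd, Mrtfa, Mrtfb, Klf4 and Actb in every library (log axis), laid out as in the plot of the contractile genes. Myocd was highest in SEG on day 7 and lowest in Erg and in control on day 7, and Klf4 was highest in control on day 3.

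Among relatives of the contractile genes, 11 rose and 3 fell of 16 tested in SEG against control on day 7. Of all genes, 22.5% rose and 21.8% fell. Actb rose by 0.86 and Actg1 by 1.14, and Nes, nestin, an intermediate filament like desmin, by 2.63, while Smtnl2 fell by 2.87 and Mylk3 by 2.04. Reads that match several actins could be shared out between them by the authors' counting: 1.39% of the 31-base words of Acta2 transcripts and 1.21% of those of Actg2 also occur in transcripts of other genes. Of the actins of striated muscle, Acta1 was at 0.717, 0.246 and 0.122 CPM in SEG libraries, at 1.34, 1.15 and 0.151 CPM in Sox17 libraries and at 0 counts in control libraries on day 7, and Actc1 was at 3 counts or fewer in each of the 24 libraries.

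Markers of other cells moved in the same comparisons. In SEG against control on day 7, 22.5% of all genes rose and 21.8% fell, the shares to set beside each list here. Of the mural cell markers, which pericytes and smooth muscle cells share, 7 rose and 3 fell of 10 tested in that comparison. Mcam was up by 7.33, Cspg4 by 4.12, Higd1b by 3.76 and Rgs4 by 2.97. These are named for the size of their change, and the 3 that fell changed less. Higd1b passed with an edgeR adjusted p of 0.0215. Their summed level was 1028 to 1226 CPM in SEG, 356 to 529.7 CPM in Sox17 and 472 to 559.7 CPM in Erg libraries, against 911 to 1022 CPM in control libraries, and Vtn was at 0 in SEG and Kcnj8 in Sox17. Of the fibroblast markers, 1 rose and 8 fell of 10 tested, with log2 changes of -6.16 for Lum, -5.95 for Dpt, -5.12 for Gsn and -4.52 for Pdgfra. The summed level was 17158 to 18663 CPM in SEG, 5886 to 9022 CPM in Sox17 and 13065 to 13372 CPM in Erg libraries, against 32770.0 to 35655 CPM in control libraries. Myofibroblast markers summed to 7991 to 13167 CPM in SEG, 3554 to 8063 CPM in Sox17 and 5862 to 7172 CPM in Erg libraries, against 9633 to 10118 CPM in control libraries. The lowest SEG library and the lowest Sox17 library for this sum were the 2 outlying ones, and the medians were 13036 CPM in SEG, 7336 CPM in Sox17 and 6636 CPM in Erg libraries, against 10081 CPM in control libraries. In SEG, Tnc was up by 3.16, Col12a1 by 2.02 and Cthrc1 by 1.26, and Postn had a log2 change of -1.07. Endothelial markers summed to 2022 to 2362 CPM in SEG, 157 to 389.6 CPM in Sox17 and 157 to 170.4 CPM in Erg libraries, against 27.8 to 31.2 CPM in control libraries, and Cldn5 was at 0 in Sox17 and control. Macrophage markers summed to 212 to 284 CPM in SEG, 142 to 234 CPM in Sox17 and 736 to 759.7 CPM in Erg libraries, against 146 to 188 CPM in control libraries, with none of the 10 at 0. Cardiomyocyte markers summed to 11.1 to 18.5 CPM in SEG, 23.95 to 73.9 CPM in Sox17 and 11.9 to 15.9 CPM in Erg libraries, against 76.05 to 94.8 CPM in control libraries, where Myl3 and Myl7 were at 0. Skeletal muscle markers summed to at most 5.79 CPM and mesothelial markers to at most 23.6 CPM in a library on that day. Outlying replicate 1 of Sox17 was the lowest or the highest Sox17 library for each of these sums. The other Sox17 libraries had 369 to 389.6 CPM of endothelial and 8411 to 9022 CPM of fibroblast markers. They had 23.95 to 26.2 CPM of cardiomyocyte markers. By calls in SEG against control, 9 of 10 endothelial markers rose, 4 of 6 mesothelial markers fell, 5 rose and 1 fell of 10 tested among macrophage markers, and 1 rose and 1 fell of 4 tested among cardiomyocyte markers. The part of any of these cells in the contractile gene values was not tested.

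On day 3, more of the 10 genes rose than fell in SEG and Sox17, and more fell than rose in Erg. In SEG, 6 of the 10 genes rose and 2 fell, against 20.0% and 20.2% of all genes. In Sox17, 7 rose and 3 fell, against 20.8% and 19.6%. In Erg, 2 rose, Tagln and Myh11, and 5 fell, Acta2, Cnn1, Actg2, Myl9 and Mylk, against 22.6% and 23.5%. The median log2 change of the 10 was 0.81 in SEG, 2.10 in Sox17 and -0.73 in Erg, against 0.0079, 0.015 and -0.0063 for all genes.

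Acta2 was at 642, 836 and 632 CPM in SEG, 1124, 1461 and 1674 CPM in Sox17 and 134, 146 and 139 CPM in Erg libraries on day 3, against 300.1, 260.4 and 287 CPM in control libraries. The groups did not overlap, and Erg libraries were below control. The log2 changes were 1.32 ± 0.179, 2.33 ± 0.185 and -1.02 ± 0.179 for SEG, Sox17 and Erg (edgeR adjusted p = 5.17e-06, 2.4e-09 and 9.23e-05). Tagln was at 385, 522 and 375 CPM in SEG, 692, 863 and 1001 CPM in Sox17 and 412, 433 and 400.4 CPM in Erg libraries, against 243, 214 and 240.3 CPM in control libraries. Unlike Acta2, it rose in all 3, by 0.88 ± 0.211, 1.87 ± 0.217 and 0.84 ± 0.211, so in Erg on day 3 the actin was lower and its binding protein higher than in control.

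Cnn1 on day 3 was at 2.61, 4.34 and 2.17 CPM in SEG, 20.98, 30.3 and 34.7 CPM in Sox17 and 0.113, 0.146 and 0.144 CPM in Erg libraries, against 1.06, 0.991 and 1.38 CPM in control libraries. It rose by 1.41 ± 0.373 in SEG and 4.64 ± 0.357 in Sox17 and fell by 3.02 ± 0.601 in Erg, where libraries held 2, 3 and 5 counts. Myh11 was at 1.02, 1.02 and 0.636 CPM in SEG, 1.65, 2.71 and 2.57 CPM in Sox17 and 4.74, 4.78 and 5.39 CPM in Erg libraries, against 0.391, 0.446 and 0.358 CPM in control libraries. It was highest in Erg on this day, with log2 changes of 1.14 ± 0.320, 2.51 ± 0.288 and 3.63 ± 0.279 for SEG, Sox17 and Erg. Actg2 was at 1.12, 1.21 and 1.83 CPM in SEG, 22.1, 29.96 and 33.3 CPM in Sox17 and 0.226, 0.342 and 0.288 CPM in Erg libraries, against 0.948, 0.842 and 0.716 CPM in control libraries. Sox17 libraries stood alone, with a rise of 5.08 ± 0.417. The change in SEG of 0.75 ± 0.463 did not pass (edgeR adjusted p = 0.224, and 0.0443 in the fit of only those 2 groups). The fall in Erg of 1.52 ± 0.593 (edgeR adjusted p = 0.0424) was not called without any single library of control or Erg on day 3 or without replicate 1 of SEG on day 7 (adjusted p = 0.0543 to 0.106), nor with no filter on low counts (0.0537).

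Myl9 rose by 1.32 ± 0.282 in SEG and 4.16 ± 0.308 in Sox17 and fell by 0.90 ± 0.292 in Erg on day 3 (edgeR adjusted p = 0.0156, and 0.0508 without replicate 1 of Erg on day 3). In Sox17 it stood at 221, 282 and 318 CPM, against 16.5, 14.7 and 14.8 CPM in control libraries. Mylk fell in all 3 conditions, by 2.04 ± 0.297, 2.75 ± 0.306 and 0.98 ± 0.278 in SEG, Sox17 and Erg, and was at 1.28, 1.28 and 1.91 CPM in SEG libraries, against 5.24, 5.75 and 7.52 CPM in control libraries. Lmod1 rose in Sox17 by 1.77 ± 0.284 and did not pass in SEG (0.55 ± 0.294, edgeR adjusted p = 0.153, and 0.0363 without replicate 1 of control on day 3) or Erg (-0.17 ± 0.307). Smtn rose in SEG by 0.54 ± 0.102, fell in Sox17 by 0.43 ± 0.102, and had a log2 change of -0.07 ± 0.101 in Erg (95% interval -0.28 to 0.14). Des fell by 1.14 ± 0.315 in SEG and 1.61 ± 0.318 in Sox17 and did not pass in Erg (-0.55 ± 0.305, edgeR adjusted p = 0.151).

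Myocd on day 3 was at 1.48, 1.24 and 1.87 CPM in SEG, 1.32, 0.853 and 0.968 CPM in Sox17 and 0.395, 1.07 and 0.433 CPM in Erg libraries, against 2.68, 2.03 and 2.25 CPM in control libraries, which were the highest. It fell by 1.13 ± 0.442 in Sox17 and 1.89 ± 0.480 in Erg, and its change in SEG of -0.59 ± 0.437 did not pass. Klf4 fell by 1.23, 1.55 and 0.72 in SEG, Sox17 and Erg, Mrtfb rose by 0.86 in SEG and 0.88 in Sox17, and Srf rose by 0.44 in Sox17. Of the 22 other contractile genes tested, 4 rose and 4 fell in SEG, against 20.0% and 20.2% of all genes. In Sox17, 9 rose and 4 fell, against 20.8% and 19.6%, and in Erg 4 rose and 6 fell, against 22.6% and 23.5%. Myofibroblast markers summed on day 3 to 11233 to 12212 CPM in SEG, 9628 to 10641 CPM in Sox17 and 14085 to 14486 CPM in Erg libraries, against 18581 to 18931 CPM in control libraries. Fibroblast markers summed to 15984 to 17227, 13020.2 to 13319 and 18778 to 19484 CPM, against 28262 to 31314 CPM in control libraries. Their part in the contractile gene values was not tested.

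Between the days, Acta2 rose in SEG, Sox17 and Erg while it fell in control, and Lmod1 rose in all 3 conditions. In SEG, 3 of the 10 rose and 2 fell on day 7 relative to day 3, against 14.3% and 12.9% of all genes. In Sox17, 4 rose and none fell, against 16.6% and 12.9%, where edgeR gave 1 fall with an unadjusted p under 0.05, Smtn, and DESeq2 none that it called. Without replicate 1 of day 7 there were 2 rises and 2 falls in Sox17. In Erg, 5 rose and 2 fell, against 15.6% and 14.4%. Between the days the 10 had a median log2 change of 0.24 in SEG, 0.32 in Sox17 and 0.67 in Erg, against 0, 0.037 and 0.0049 for all genes.

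Acta2 was higher on day 7 than on day 3 by 0.67 ± 0.177 in SEG, 0.63 ± 0.177 in Sox17 and 0.74 ± 0.178 in Erg (edgeR adjusted p = 0.00747, 0.011 and 0.00327), against -2.12 in control. The Sox17 value was 0.34 without replicate 1 of day 7 (edgeR adjusted p = 0.0678) and did not pass without replicate 1 of day 3 (0.49, edgeR adjusted p = 0.0724) or in the fit of only those 2 groups (0.63, adjusted p = 0.248). Tagln did not pass in SEG (0.14 ± 0.210) or Sox17 (0.08 ± 0.209, and -0.34 without replicate 1 of day 7), and fell in Erg by 0.64 ± 0.211 (edgeR adjusted p = 0.0273), a call lost without any single Erg library (adjusted p = 0.0518 to 0.0761). Lmod1 rose in each condition, by 1.83 ± 0.270 in SEG, 1.86 ± 0.255 in Sox17 and 1.69 ± 0.285 in Erg. It was the only one of the 10 genes with a called rise above 1 log2 unit in all 3, and it did not pass in control.

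Myh11 showed the steepest rise over time of the 10 genes in SEG. It was at 8.03, 11.2 and 9.33 CPM on day 7, against 1.02, 1.02 and 0.636 CPM on day 3, and rose by 3.42 ± 0.241 (edgeR adjusted p = 2.97e-09), or 3.56 without both outlying libraries. The change in Sox17 of -0.19 ± 0.219 and in Erg of 0.37 ± 0.206 did not pass (edgeR adjusted p = 0.529 and 0.193). Cnn1 was lower on day 7 in SEG by 1.02 ± 0.350 (edgeR adjusted p = 0.0355) and higher in Sox17 by 1.12 ± 0.275 (edgeR adjusted p = 0.00457). The fall in SEG was not called without replicate 2 or 3 of SEG on day 7, replicate 2 of SEG on day 3 or replicate 1 of Erg on day 3 (adjusted p = 0.0523 to 0.239). In the fit of only the 2 groups compared, neither Cnn1 call was kept, with 1.11 in Sox17 (adjusted p = 0.129) and -1.01 in SEG (adjusted p = 0.0602).

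Myl9 rose in Erg by 1.62 ± 0.290, at 23.98, 27.4 and 24.5 CPM on day 7 against 8.02, 8.40 and 8.19 CPM on day 3, and did not pass in SEG (0.33 ± 0.272). In Sox17 its rise of 0.75 ± 0.268 (edgeR adjusted p = 0.0399) came with libraries that overlapped. It was 0.13 without replicate 1 of day 7 (edgeR adjusted p = 0.563), and did not pass without replicate 1 or 2 of day 3 (adjusted p = 0.157 and 0.088) or in the fit of only those 2 groups (0.75, adjusted p = 0.373). Mylk rose in Erg by 1.67 ± 0.274, as it did in control. Its log2 changes of 0.80 ± 0.305 in SEG (edgeR adjusted p = 0.0597) and 0.56 ± 0.320 in Sox17 did not pass. Without both outlying libraries Mylk rose in both, by 1.11 in SEG (edgeR adjusted p = 0.000848) and 0.84 in Sox17 (edgeR adjusted p = 0.017). In SEG it also passed with DESeq2 (adjusted p = 0.0318). Leaving out single libraries, it passed in SEG (edgeR adjusted p = 0.00584 to 0.0479) without replicate 1 of SEG on day 7 or replicate 3 of SEG on day 3. The same held without replicate 1 or 2 of Sox17 on day 7 or replicate 1 of Erg on day 3. Actg2 rose in Erg by 1.64 ± 0.566 (edgeR adjusted p = 0.0337), a call lost without any single Erg library other than replicate 1 of day 7 (adjusted p = 0.0619 to 0.133). In Sox17 it was at 33.4, 13.7 and 15.7 CPM on day 7, against 22.1, 29.96 and 33.3 CPM on day 3, which did not pass with all libraries (-0.44 ± 0.312) and was a fall of 0.95 without replicate 1 of day 7 (edgeR adjusted p = 0.00204). Smtn fell by 0.38 ± 0.101 in SEG and 0.36 ± 0.102 in Erg. In Sox17 Smtn had -0.26 ± 0.101, and fell by 0.41 without replicate 1 of day 7. Des passed in none of the 4 conditions.

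**Figure D4:**
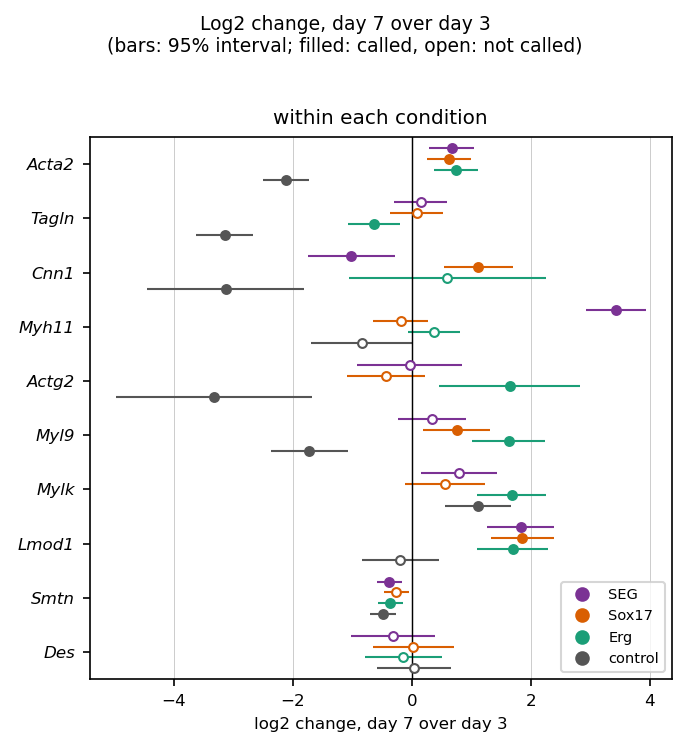
Log2 change of each gene on day 7 over day 3 within SEG, Sox17, Erg and control. Bars are approximate 95% intervals from edgeR's test, and filled points are called changes. Control points lie far left of the conditions for Acta2, Tagln, Actg2 and Myl9, Myh11 stands out to the right in SEG, and Lmod1 is to the right in all 3 conditions but not in control.

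Myocd over the same interval rose in SEG and fell in control. In SEG it was at 2.44, 3.82 and 4.03 CPM on day 7, against 1.48, 1.24 and 1.87 CPM on day 3, with a log2 change of 1.16 ± 0.427 (edgeR adjusted p = 0.0499). That call was lost without any single SEG library other than replicate 1 of day 7 (adjusted p = 0.0692 to 0.163). Its changes in Sox17 of -0.14 ± 0.449 and in Erg of -0.63 ± 0.554 did not pass, and the Sox17 value was 0.34 without replicate 1 of day 7. Mural cell markers summed in SEG to 1028 to 1226 CPM on day 7, against 599 to 696 CPM on day 3. Of 10 tested, 7 rose, against 14.3% of all genes. Their part in the rise of Myh11 was not tested. Macrophage markers summed in Erg to 736 to 759.7 CPM on day 7, against 177 to 192 CPM on day 3, with none of the 10 at 0, and their part in the Erg values was not tested.

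The difference between conditions in their change over time was tested as the change of each effect against control between the days. In each of SEG, Sox17 and Erg, 6 of the 10 had a more positive effect on day 7 and none a more negative one. Of all genes, 6.09%, 7.61% and 9.34% had a more positive and 5.77%, 6.66% and 10.4% a more negative effect. EdgeR gave none of the 10 a more negative effect at an unadjusted p under 0.05, nor did DESeq2 make such a call. A more positive effect need not be a larger one. In Erg, Acta2, Actg2 and Myl9 went from a fall on day 3 to a rise on day 7. Cnn1 in Erg fell on day 3 and did not pass on day 7. Acta2, Tagln, Actg2, Myl9 and Lmod1 passed in all 3 conditions, Myh11 in SEG, and Cnn1 in Sox17 and Erg. In Erg, Myh11 passed only under alternatives. These were the fit of only the groups compared (1.225, edgeR adjusted p = 0.0341) and the fit without both outlying libraries (1.233, edgeR adjusted p = 0.0486). Mylk, Smtn and Des passed in none. All 3 tests share the control change, so their agreement is not independent.

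SEG cells were also set against each single factor, as the groups of the series allow. The factors themselves were not at equal levels in these groups. Erg was at 836 to 1281 CPM in SEG and 4327 to 7133 CPM in Erg libraries. Sox17 was at 461 to 1054 CPM in SEG and 616 to 1653 CPM in Sox17 libraries. The part of these levels in the differences was not tested. Against Sox17, SEG held less of most contractile transcripts. On day 7, 3 of the 10 were higher and 6 lower in SEG than in Sox17, against 18.8% and 21.2% of all genes, and on day 3, 1 was higher and 7 lower, against 14.0% and 14.2%. The median log2 change of the 10 was -0.95 on day 7 and -1.12 on day 3, against -0.03 and 0 for all genes.

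Acta2 was lower in SEG than in Sox17 by 0.98 ± 0.178 on day 7 and 1.01 ± 0.178 on day 3, and Tagln by 0.93 ± 0.211 and 0.995 ± 0.211, on the log2 scale. The gaps were widest for 3 genes. Cnn1 had log2 changes of -5.37 ± 0.350 on day 7 and -3.23 ± 0.314 on day 3, Actg2 of -3.94 ± 0.382 and -4.34 ± 0.384, and Myl9 of -3.26 ± 0.292 and -2.84 ± 0.287 (edgeR adjusted p = 2.41e-10 for Cnn1 and 2.25e-08 for Myl9 on day 7). Without replicate 1 of Sox17 on day 7, the day 7 values were -0.69 for Acta2, -0.51 for Tagln, -4.95 for Cnn1, -3.43 for Actg2 and -2.64 for Myl9, all called. The Tagln call on day 7 was lost in the fit of only those 2 groups (-0.94, adjusted p = 0.114). Lmod1 fell by 1.25 ± 0.251 and 1.22 ± 0.269. Myh11 changed side: SEG was above Sox17 on day 7 by 2.24 ± 0.215 (edgeR adjusted p = 6.08e-08) and below it on day 3, where it fell by 1.37 ± 0.245 (edgeR adjusted p = 0.000196). Smtn was higher in SEG on both days, by 0.86 ± 0.102 and 0.98 ± 0.102. Mylk was higher in SEG on day 7 by 0.95 ± 0.298 (edgeR adjusted p = 0.0154), a call lost without replicate 1 of Sox17 or replicate 2 or 3 of SEG on day 7 (adjusted p = 0.0687 to 0.0855) and in the fit of only those 2 groups (0.229). On day 3 its value of 0.71 ± 0.328 did not pass (edgeR adjusted p = 0.119), and passed in the fit of only those 2 groups and without both outlying libraries. Des passed on neither day, with 95% intervals of -0.56 to 0.84 on day 7 and -0.22 to 1.16 on day 3.

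Against Erg, SEG held more of most of them. On day 7, 7 of the 10 were higher and 1, Mylk, lower, against 24.7% and 24.8% of all genes, and on day 3, 6 were higher and 2 lower, against 25.7% and 25.3%. The median log2 change of the 10 was 0.71 on day 7 and 0.67 on day 3, against 0.011 and 0.019 for all genes. Acta2 was higher in SEG by 2.26 ± 0.185 on day 7 and 2.33 ± 0.185 on day 3, Cnn1 by 2.81 ± 0.514 and 4.43 ± 0.517, and Myl9 by 0.93 ± 0.275 and 2.22 ± 0.293. The Cnn1 value on day 7 was 3.91 without replicate 3 of Erg. Tagln was higher by 0.82 ± 0.211 on day 7 and did not pass on day 3 (0.04 ± 0.210, 95% interval -0.40 to 0.48). Myh11 was lower in SEG on day 3, by 2.49 ± 0.241, and higher on day 7, by 0.57 ± 0.202 (edgeR adjusted p = 0.0259), a call lost without replicate 2 or 3 of SEG or replicate 1 or 3 of Erg on day 7 (adjusted p = 0.05 to 0.134). Mylk fell by 1.94 ± 0.279 on day 7 and 1.06 ± 0.302 on day 3. Smtn was higher by 0.60 ± 0.102 and 0.62 ± 0.102, Actg2 by 2.26 ± 0.535 on day 3 and not called on day 7 (0.59 ± 0.443), and Lmod1 by 0.86 ± 0.258 on day 7 and 0.72 ± 0.292 on day 3, where edgeR gave an adjusted p of 0.0458. That call was lost on leaving out any of 14 single libraries (adjusted p = 0.0501 to 0.191): replicates 1 and 2 of SEG on day 3, all 3 of SEG on day 7, replicates 1 and 3 of Erg on each day, replicate 3 of Sox17 on day 3, replicates 2 and 3 of Sox17 on day 7, replicate 3 of control on day 3 and replicate 1 of control on day 7. Des did not pass on either day (-0.75 ± 0.327 and -0.59 ± 0.318). It passed on day 7 with DESeq2, in the fit of only those 2 groups, without both outlying libraries, and without replicate 1 of Erg on day 3 or replicate 1 or 2 of Sox17 on day 7, and on day 3 without replicate 1 of Erg or of SEG on day 3.

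**Figure D5:**
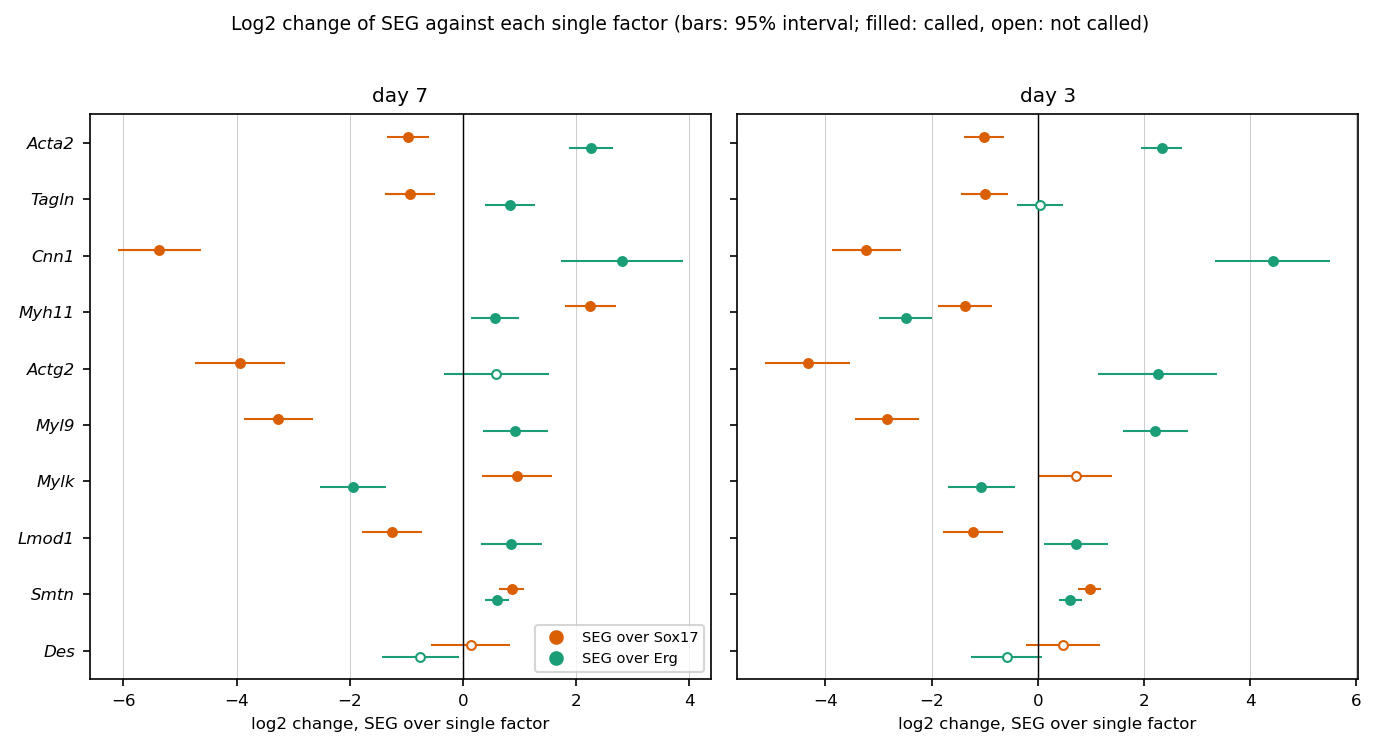
Log2 change of each gene in SEG over Sox17 and in SEG over Erg on day 7 (left) and day 3 (right). Bars are approximate 95% intervals from edgeR's test, filled points are called changes, and the panels have different scales. SEG lies left of 0 against Sox17 and right of 0 against Erg for Acta2, Cnn1 and Myl9 on both days, and Myh11 lies right of 0 on day 7 and left of 0 on day 3 in both comparisons.

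Across the 8 groups the 10 genes fell into different patterns. As a description over 8 group means of log2 CPM, which share libraries and scaling, Pearson's r was 0.981 between Actg2 and Myl9, 0.942 between Cnn1 and Actg2 and 0.940 between Acta2 and Myl9, but 0.362 between Acta2 and Myh11, 0.0216 between Acta2 and Smtn, -0.848 between Acta2 and Mylk and -0.903 between Acta2 and Des. By the order of group means, Acta2 ran Sox17 day 7, Sox17 day 3, SEG day 7, SEG day 3, control day 3, Erg day 7, Erg day 3 and control day 7, and only Sox17 day 3 and SEG day 7 overlapped among neighbours. Myh11 ran SEG day 7, Erg day 7, Erg day 3, Sox17 day 3, Sox17 day 7, SEG day 3, control day 3 and control day 7, and only both Sox17 groups overlapped. Mylk ran control day 7, Erg day 7 and control day 3 at the top, without overlap, and Sox17 day 3 at the bottom, where the 5 lowest groups overlapped in a chain.

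The highest group mean was 99.3 times the lowest for Myl9, 44.7 times for Myh11, 34.3 times for Tagln and 34.0 times for Acta2, and it was 3.14 times for Des and 2.36 times for Smtn. No ratio is given for Cnn1 and Actg2, whose lowest groups rest on a few counts. Among 10319 genes with at least 10 CPM in their highest group, leaving out those with provisional Gm or Rik names, those whose group means correlated best with Acta2 were Dusp16 (r = 0.986), Anxa5 (0.983), Rps19bp1 (0.983), Ppp1r13l (0.980) and Polr2d (0.979), and with Myh11 they were Actn4 (0.941), Mapkapk5 (0.920), Npffr1 (0.914), Aktip (0.912) and M6pr (0.893). These are correlations over 8 points and are given as a description.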

How the data were processed

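The deposited values are unnormalized whole-number read counts for each gene. Salmon, DESeq2 and the build mm10 are named in the submitters' processing notes. Their versions and roles, the strandedness of counting and whether Salmon's estimates were rounded were not stated by any source used here. Of 35727 identifiers, 35422 were matched to a symbol and 305 were not. Columns were matched to libraries by name.

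The model used edgeR 4.0.16 and limma 3.58.1 under R 4.3.3. After filterByExpr with a minimum count of 10 and TMM scaling, a quasi-likelihood model with 8 group means, at a prior count of 0.125, was fitted to all 24 libraries. In all, 17 comparisons were tested 2-sided, and a call needed an adjusted p (Benjamini-Hochberg) below 0.05. The script was tested on simulated data. Log2 CPM for correlations had a prior count of 2, and CPM per kilobase used GENCODE exon lengths.

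The members and 11 further gene lists were chosen with earlier results of these data known. Every member is named; of each list, up to 4 called genes with the largest change in SEG against control on day 7 and in control between the days, besides Srf, Myocd, Mrtfa, Mrtfb, Klf4, Acta1, Actc1, Actb and Actg1. Same-numbered libraries were taken as unpaired, since 9 of 84 such pairs had a correlation of their deviations over 0.1 (median 0.0028). The exception was SEG and Sox17 on day 7, where all 3 pairs did (0.690, 0.396 and 0.441). Both outlying libraries are replicate 1. Deviations were taken from the mean of 3 libraries, so these outliers raise all 3 correlations, which are not independent signs of pairing. Any such pairing comes from the data, not the labels. Libraries of a group differed by more than counting noise in all 24 pairs. Alternatives were RLE size factors, no filter, a replicate block, only the groups compared, DESeq2 1.42.0, leaving out each library, and leaving out both outlying day 7 libraries. Added after seeing the data were a replicate block in SEG and Sox17 on day 7 alone, and fits of regulators and other named genes without single or both outlying libraries.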

Additional observations from a re-analysis of the deposited data

Results flagged for a closer look

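The effect against control differed between day 7 and day 3, by edgeR's test of that difference itself at an adjusted p under 0.05, for 6 of the 10 genes in each condition. For SEG, the log2 effect on day 7 minus that on day 3 was 2.79 ± 0.255 for Acta2, 3.29 ± 0.306 for Tagln, 4.27 ± 0.480 for Myh11, 3.29 ± 0.916 for Actg2, 2.06 ± 0.409 for Myl9 and 2.02 ± 0.410 for Lmod1. For Sox17, it was 2.76 ± 0.255 for Acta2, 3.22 ± 0.306 for Tagln, 4.25 ± 0.680 for Cnn1, 2.89 ± 0.872 for Actg2, 2.48 ± 0.407 for Myl9 and 2.05 ± 0.400 for Lmod1, and without replicate 1 of Sox17 on day 7 the value for Myl9 was 1.85. For Erg, it was 2.87 ± 0.256 for Acta2, 2.51 ± 0.304 for Tagln, 3.72 ± 1.05 for Cnn1, 4.97 ± 0.970 for Actg2, 3.35 ± 0.422 for Myl9 and 1.89 ± 0.421 for Lmod1.

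The Actg2 values rest on 5 counts in control on day 7. The call for Actg2 was lost in SEG without replicate 1 or 2 of control on day 7 (adjusted p = 0.0667 and 0.0765) and in Sox17 without any of 5 libraries (adjusted p = 0.0543 to 0.108), namely replicates 1 and 2 of control on each day and replicate 1 of Sox17 on day 3, and with only the groups compared (0.113). In SEG, Cnn1 had 2.11 ± 0.759 (edgeR adjusted p = 0.0827), which passed with DESeq2, with only the groups compared, and without replicate 2 of SEG on day 3 or replicate 1 of Sox17 on day 7. The Cnn1 value in Erg was 2.62 without replicate 3 of Erg on day 7 (edgeR adjusted p = 0.245). Control fell between the days for Acta2, Tagln, Cnn1, Actg2 and Myl9, and that fall enters all 3 tests. The values within each condition are in the results above.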

How the results depend on the processing

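Of 170 values of the 10 genes in 17 comparisons, refitted under 6 alternatives, 973 of 1015 refits kept their direction and their side of the threshold, 8 changed sign and none of these was called either way. Of 4080 refits that left out 1 library, 3973 did so and 32 changed sign. Each library was left out for every comparison, so most of these refits dropped a library outside the groups compared. Such a refit changes only the shared filter, scaling and spread, so the total overstates how stable the values are. Counts of members were within 1.5 times except in these cases. With only the groups compared, falls numbered 1 in Erg against control on day 7, 1 in SEG between the days and 2 in SEG against Erg on day 7, and rises 1 in Sox17 between the days and 2 in SEG against Sox17 on day 3. With DESeq2, falls numbered 1 in Erg against control on day 7 and 2 in SEG against Erg on day 7. Without both outlying day 7 libraries, there were 2 falls in each of Erg against control on day 7, Sox17 between the days and SEG against Erg on day 7, and 2 rises in SEG against Sox17 on day 3. Leaving out single libraries gave falls of 0 to 1 in Erg against control on day 7, 3 to 5 in Erg against control on day 3, 1 to 2 in SEG and in Erg between the days, 0 to 2 in Sox17 between the days and 1 to 2 in SEG against Erg on day 7, and rises of 2 to 4 in Sox17 between the days; the cause was not tested.

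Changes of sign, none in a called value, were these. For Des they were 0.018 with no filter, 0.014 with DESeq2 and 0.13 without both outlying libraries in the change of the Sox17 effect, and -0.11 without both in SEG against Sox17 on day 7. Without both, Myh11 was 0.0056 and Tagln -0.32 in Sox17 between the days, and Mylk 0.013 in the change of the SEG effect. On leaving out single libraries, ranges that crossed 0 were -0.39 to 1.07 (Cnn1) and -0.0059 to 0.12 (Smtn) for Erg against control on day 7, -0.45 to 0.16 (Lmod1) on day 3, -0.16 to 0.22 (Actg2) and -0.49 to 0.0047 (Des) for SEG between the days, -0.29 to 0.22 (Des) and -0.34 to 0.27 (Tagln) for Sox17, -0.51 to 0.89 (Cnn1) and -0.36 to 0.084 (Des) for Erg, -0.050 to 0.15 (Des) and -0.47 to 0.14 (Lmod1) for control, -0.047 to 0.46 (Des) for SEG against Sox17 on day 7, -0.12 to 0.13 (Tagln) for SEG against Erg on day 3, and, for the change of an effect, -0.49 to 0.016 (Mylk, SEG), -0.31 to 0.20 (Des, Sox17) and -0.38 to 0.051 (Des, Erg).

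With a replicate block, 3 calls were lost, Actg2 in Erg against control on day 3 (-1.53, edgeR adjusted p = 0.055), Lmod1 in SEG against Erg on day 3 (0.71, adjusted p = 0.0619) and Myl9 in Sox17 between the days (0.69, adjusted p = 0.0641), and Des in Sox17 between the days was at -0.00043. Of 28 pairs of groups, only in SEG and Sox17 on day 7 were all 3 same-numbered correlations over 0.1. A replicate block in a fit of those 2 groups alone kept 3 members higher and 6 lower, with adjusted p from 0.000131 to 0.0428 for the 9, and the block in the fit of all libraries changed no other call. In alternatives chosen after seeing the data, Myocd in Sox17 between the days was 0.34 without replicate 1 of day 7.

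The share of all genes called also moved: for control between the days it was 29.5%, against 16.7% with no filter and 60.4% with only those groups, and for Sox17 between the days 29.5%, against 6.18% with only those groups and 40.8% without both outlying libraries. Low counts limit Cnn1 and Actg2 in Erg and in control on day 7 and Myh11 in control.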
